A study of Mus musculus with 12 samples.

Results

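Aass and the later enzymes of lysine breakdown were followed in mouse embryonic stem cells of 4 strains. The 5 genes are Aass, Aldh7a1, Aadat, Dhtkd1 and Gcdh, of 43346 gene IDs in the expression table, and all 5 were among the 17148 genes with enough reads to be tested. Aass was chosen by its level in these libraries, which followed the strain origin of a chromosome 13 segment, and the others because they catalyse later steps of the same pathway. The values of Aass are therefore a description, with no test. The question for the other 4 genes is whether they follow the same segment.

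RNA was sequenced from 12 libraries, 3 in each of 4 groups. B6 is C57BL/6J and D2 is DBA/2J, both inbred strains. B6-13D2 is B6.D2-(rs30079041-rs51756099)/Bakr, the B6 genome with a chromosome 13 segment of D2. D2-13B6 is D2.B6-(rs29224292-rs13469455)/Bakr, the D2 genome with the B6 segment. All groups grew in 15% serum with LIF, PD0325901 (1 μM, a MEK inhibitor) and CHIR99021 (3 μM, a GSK3 inhibitor). The protocol describes 3 cultures of a single line per strain, so strain and line cannot be told apart. All 12 sample titles call the libraries technical replicates instead, so n = 3, each SE and each p-value measure the spread between these libraries, which may be technical. B6 replicate 3 carries another line name than B6 replicates 1 and 2, the D2 titles and cell line fields differ, and the series text gives D2-13B6 another segment end than the sample labels. None of the 5 genes lies on chromosome 13.

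Libraries held 22184196 to 36411799 expected counts. All 8 stem cell markers listed, Pou5f1, Nanog and Sox2 among them, were detected in every group, with a summed level of 4230 to 4370 CPM (counts divided by TMM-scaled library size) in B6-13D2, 3750 to 3910 in B6, 3110 in D2-13B6 and 2740 to 2760 in D2. Markers of fibroblasts were abundant as well, and none of 6 was at 0 in any group. Their summed level, most of it from Col1a1 and Col1a2, was 13900 to 16700 CPM in D2, 9270 to 10100 in B6, 7590 to 7920 in D2-13B6 and 3060 to 3140 in B6-13D2. Hepatocyte markers were near absent: Alb, Ttr, Apoa1 and Serpina1a were each under 0.1 CPM in every group, and the 5 markers together, chiefly Hnf4a, reached 0.615 to 3.32 CPM. In bulk RNA, fewer cells of a type and less RNA per cell cannot be told apart.

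Lysine is broken down in mitochondria, above all in liver and kidney, through saccharopine. AASS, a bifunctional enzyme, joins lysine to 2-oxoglutarate and then splits saccharopine into glutamate and an aldehyde of aminoadipate. ALDH7A1 oxidises the aldehyde, AADAT transaminates aminoadipate to 2-oxoadipate, the DHTKD1 complex converts that to glutaryl-CoA, and GCDH oxidises glutaryl-CoA towards acetyl-CoA. Inherited defects are known for several steps, including pyridoxine-dependent epilepsy for ALDH7A1 and glutaric aciduria for GCDH.

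The promoter sequence of Aass is shown because its RNA varied most of the 5, beside that of Gcdh, a later step that varied differently. Both are the 250 bases before the RefSeq start (GRCm38.p6, minus strand, 5′ to 3′), with the letters CCAAT (or ATTGG, its reverse complement) and TGACG (or CGTCA) in capitals. The Aass window is chr6:23132987-23133236 and the Gcdh window chr8:84893922-84894171.
Aass: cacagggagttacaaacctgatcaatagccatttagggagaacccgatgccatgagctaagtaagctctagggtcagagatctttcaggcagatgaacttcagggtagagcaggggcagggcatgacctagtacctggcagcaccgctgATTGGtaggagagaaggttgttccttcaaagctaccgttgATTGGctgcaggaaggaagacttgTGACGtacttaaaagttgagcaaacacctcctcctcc
Gcdh: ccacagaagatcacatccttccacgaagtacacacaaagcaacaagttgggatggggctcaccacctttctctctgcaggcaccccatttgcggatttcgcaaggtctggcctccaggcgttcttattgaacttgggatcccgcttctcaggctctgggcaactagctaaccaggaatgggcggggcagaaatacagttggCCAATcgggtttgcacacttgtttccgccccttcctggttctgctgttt

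RefSeq promoters were matched for 4 of the 5 genes. The Aass window held CCAAT letters at 2 places, both on the other strand, and TGACG at 1 place, while TATAAA was absent on both strands. The Gcdh window held CCAAT at 1 place, the Dhtkd1 window at 2 and the Aadat window at 0, and none of these 3 held TGACG. Of 32851 promoter windows of the same length, 33.8% held CCAAT, 17.8% TGACG and 12.4% TATAAA on either strand. The Aass window had 4 CpG dinucleotides, against 13 for Aadat, 10 for Dhtkd1, 8 for Gcdh and a median of 6 over all windows. Such matches describe the sequence only.

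Aass (ENSMUSG00000029695, chromosome 6, 23072173 to 23132986, GRCm38) was high in the groups with the D2 segment and low in those with the B6 segment. The B6 libraries had 0.747, 0.588 and 0.943 CPM, from 14 to 22 counts each. The D2 libraries had 23.0, 26.6 and 28.3 CPM, and the B6-13D2 libraries 14.6, 15.9 and 14.8 CPM. The D2-13B6 libraries had 3.10, 2.99 and 2.65 CPM, so that no group overlapped another.

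With the D2 segment the fitted Aass level was 19.8-fold higher on the B6 background (B6-13D2 against B6) and 8.86-fold higher on the D2 background (D2 against D2-13B6). Only 23 of 17148 genes had a larger absolute log2 fold change in the former and 62 in the latter. The congenic lines did not reach the level of the parental strain with the same segment. B6-13D2 was 1.72-fold below D2, and D2-13B6 was 3.84-fold above B6. D2 was 34.0-fold above B6. No annotated gene overlaps Aass, and its counts were whole in all 12 libraries.

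**Figure D1:**
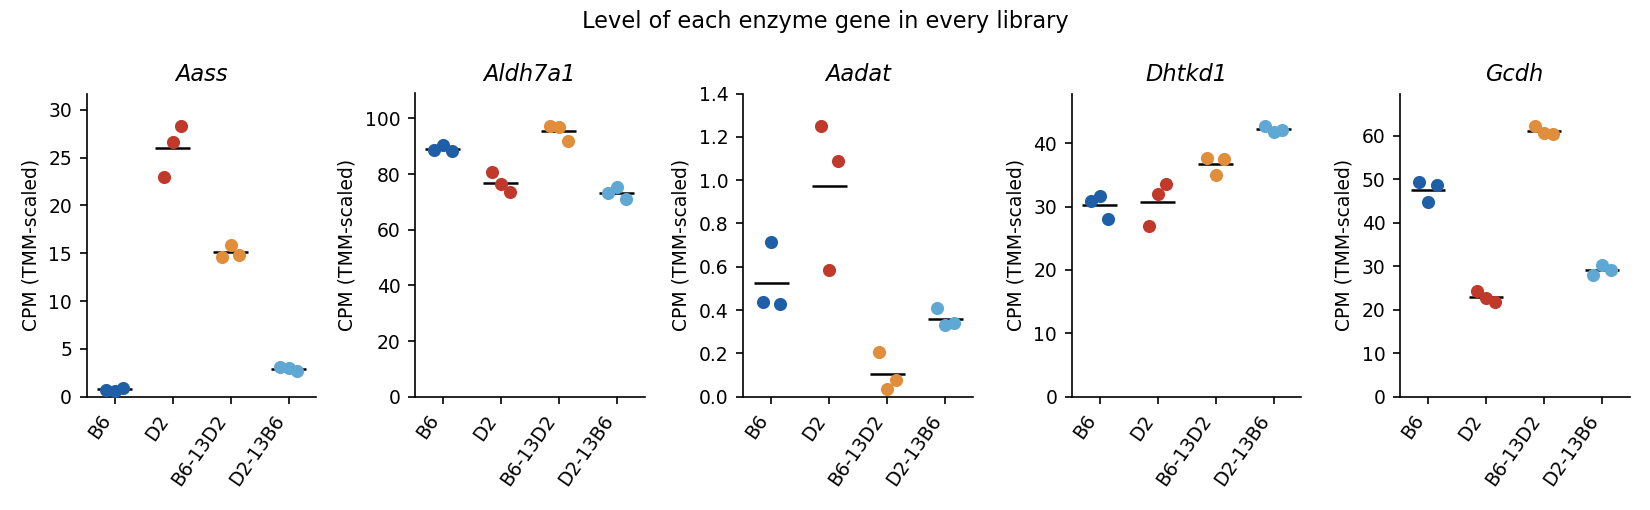
Level of the 5 enzyme genes (CPM, each vertical axis from 0) in the 12 libraries, by group; points are libraries and bars are group means (n = 3). For Aass, the 3 D2 and 3 B6-13D2 libraries lie between 14.6 and 28.3 CPM and the 3 B6 and 3 D2-13B6 libraries between 0.588 and 3.10 CPM; no later enzyme gene is split this way by the segment.

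The 4 later genes were read by the same rule for each. A gene was said to be called at an adjusted p under 0.05 in edgeR's quasi-likelihood test (Benjamini-Hochberg over all 17148 genes), and to follow the segment when it was called on both backgrounds with the same sign. By that rule 0 of 4 followed it, beside 7.33% of all tested genes, so that the count is near the background and says nothing particular about these genes. DESeq2 also gave 0. The other 3, Aadat, Dhtkd1 and Gcdh, were called on both backgrounds with opposite signs, as were 32.2% of all genes, and in edgeR's test of the difference between backgrounds (64.5% of genes called) the same 3 of 4 were called. In B6-13D2 against B6 all 4 were called (background 58.3% of genes), with Aldh7a1, Dhtkd1 and Gcdh higher and Aadat lower. In D2 against D2-13B6, 3 of 4 were called (background 57.3%), with Aadat higher and Dhtkd1 and Gcdh lower.

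Aldh7a1 (ENSMUSG00000053644, chromosome 18, 56509687 to 56572951), which removes the reactive aldehyde, came closest to a shared direction, at a far smaller size than Aass. B6 libraries had 88.7, 90.4 and 88.3 CPM and B6-13D2 libraries 97.3, 97.1 and 91.8 CPM. On the D2 background the levels were 80.6, 76.6 and 73.7 CPM for D2 and 73.1, 75.4 and 71.0 CPM for D2-13B6. The lines on the B6 background thus lay above those on the D2 background in every library, and D2 overlapped D2-13B6. With the D2 segment, the log2 difference on the B6 background was 0.10 (edgeR adjusted p 0.0453, SE 0.0403). On the D2 background it was 0.07 (edgeR adjusted p 0.14, SE 0.0406, 95% interval -0.01 to 0.16).

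Averaged over backgrounds, the D2 segment went with an Aldh7a1 log2 difference of 0.09 (95% interval 0.02 to 0.15, edgeR adjusted p 0.0225; 43.9% of genes were called in this average). That is 1.06-fold, against 13.2-fold for Aass. Aldh7a1 was also called in D2 against D2-13B6 when genes under a mean of 1 CPM were left out (log2 fold change 0.11, edgeR adjusted p 0.0219) and without D2 replicate 3 (0.10, edgeR adjusted p 0.0406), which makes it follow the segment. Its call in B6-13D2 against B6 was lost without any 1 of 7 libraries: B6 replicates 1, 2 or 3, D2 replicate 2, B6-13D2 replicates 1 or 2, or D2-13B6 replicate 1 (edgeR adjusted p 0.0535 to 0.13). Its counts were divided with other loci in all 12 libraries, and its exons overlap those of Phax on the other strand, so that the level is uncertain. Phax, an RNA export factor, went against it in B6-13D2 against B6, with -0.19 (edgeR adjusted p 0.00318), and with it in D2-13B6 against B6, with -0.17 (edgeR adjusted p 0.00667). In D2 against D2-13B6 Phax had 0.09 (edgeR adjusted p 0.112) and in D2 against B6 -0.07 (edgeR adjusted p 0.202), the signs of Aldh7a1, and in B6-13D2 against D2 it had -0.11 (edgeR adjusted p 0.0438), the opposite sign.

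The background mattered more than the segment for Aldh7a1. With the same segment, it was higher in B6-13D2 than in D2 by 0.31 on the log2 scale (SE 0.0404, edgeR adjusted p 1.69e-06), and lower in D2-13B6 than in B6, with -0.28 (SE 0.0405, edgeR adjusted p 1e-05). These comparisons called 74.6% and 59.0% of all genes. In the parental comparison D2 was lower, with -0.21 (SE 0.041, edgeR adjusted p 0.000245; background 60.0%).

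Aadat (ENSMUSG00000057228, chromosome 8, 60505932 to 60545677), the transaminase, was barely expressed. The B6 libraries had 10, 17 and 10 counts (0.439, 0.713 and 0.429 CPM) and the B6-13D2 libraries 6, 1 and 2 (0.208, 0.0336 and 0.0755 CPM). The D2 libraries had 30, 21 and 24 counts (1.25, 0.584 and 1.09 CPM) and the D2-13B6 libraries 15, 12 and 10 (0.411, 0.332 and 0.340 CPM). B6-13D2 lay below every other group, and D2 overlapped B6. D2-13B6 lay below both parental groups, but barely below B6 (at most 0.411 against at least 0.429 CPM).

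Aadat moved in opposite directions with the D2 segment. On the B6 background it was lower, with -2.28 on the log2 scale (edgeR adjusted p 0.00175, SE 0.551), and on the D2 background higher, with 1.38 (edgeR adjusted p 0.00616, SE 0.395). The summed counts gave ratios of 0.200 (exact 95% interval 0.0847 to 0.421) and 2.52 (1.68 to 3.85), intervals that cover counting error only. Without B6-13D2 replicate 1, whose 6 counts were the most in that group, the first change was -3.20, and it stayed called. The average over backgrounds was -0.45 (95% interval -1.17 to 0.28, edgeR adjusted p 0.317). Aadat was not called in D2 against B6 (0.84, edgeR adjusted p 0.0758) or in D2-13B6 against B6 (-0.54, edgeR adjusted p 0.298). The place of B6 in the order of the group means is thus uncertain. That order, D2, B6, D2-13B6 and B6-13D2, was also that of the summed fibroblast markers (13900 to 16700, 9270 to 10100, 7590 to 7920 and 3060 to 3140 CPM) and of 3 of the 6 singly, but not of Col3a1, Twist2 and Dcn. Their part in the result was not tested.

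Dhtkd1 (ENSMUSG00000025815, chromosome 2, 5896115 to 5942792), the first component of the 2-oxoadipate dehydrogenase complex, was higher in each congenic line than in the strain of its background. The libraries had 30.9, 31.7 and 28.1 CPM in B6 and 37.7, 35.0 and 37.5 in B6-13D2, without overlap. They had 26.9, 31.9 and 33.5 CPM in D2 and 42.7, 41.7 and 42.1 in D2-13B6, again without overlap. The log2 fold change with the D2 segment was 0.28 on the B6 background (SE 0.0676, edgeR adjusted p 0.00167) and -0.45 on the D2 background (SE 0.0648, edgeR adjusted p 1e-05).

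Averaged over backgrounds, the Dhtkd1 difference was -0.09 (95% interval -0.19 to 0.01, edgeR adjusted p 0.147). D2 and B6 did not separate, with a log2 fold change of 0.03 (95% interval -0.12 to 0.17, edgeR adjusted p 0.767). Counts of Dhtkd1 were divided with other loci in all 12 libraries. The antisense gene Gm13267 overlaps its exons but had at most 7 counts in a library.

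Gcdh (ENSMUSG00000003809, chromosome 8, 84886393 to 84893921), the last enzyme of the 5, was set apart first by the background. The libraries had 49.3, 44.8 and 48.7 CPM in B6 and 62.3, 60.6 and 60.4 in B6-13D2. They had 24.4, 22.8 and 21.8 CPM in D2 and 27.9, 30.4 and 29.1 in D2-13B6, and no group overlapped another. B6 was 2.07-fold above D2 (log2 fold change of D2 against B6 -1.05, SE 0.054, edgeR adjusted p 2.63e-11). With the D2 segment in both, B6-13D2 was 2.66-fold above D2 (log2 fold change 1.41, SE 0.0523, edgeR adjusted p 4.29e-14). With the B6 segment in both, D2-13B6 was lower than B6 by -0.71 on the log2 scale (SE 0.0512, edgeR adjusted p 2e-09).

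The order of the Gcdh group means (B6-13D2, B6, D2-13B6, D2) was also that of the summed stem cell markers (4230 to 4370, 3750 to 3910, 3110 and 2740 to 2760 CPM) and of 5 of the 8 singly, but not of Klf4, Zfp42 and Utf1. Their part in the result was not tested.

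As for Dhtkd1, the congenic lines exceeded the strain of their background. The Gcdh log2 fold change with the D2 segment was 0.36 on the B6 background (SE 0.0489, edgeR adjusted p 5.18e-06) and -0.34 on the D2 background (SE 0.0547, edgeR adjusted p 3.94e-05). The average was 0.01 (95% interval -0.07 to 0.09, edgeR adjusted p 0.842). Gcdh counts were whole in all libraries. Its span overlaps Syce2, a meiotic gene on the other strand, but no exons overlap. Syce2 had the signs of Gcdh on both backgrounds, with 1.00 in B6-13D2 against B6 (edgeR adjusted p 5.33e-09) and -0.32 in D2 against D2-13B6 (edgeR adjusted p 0.00343), and also in D2 against B6, with -0.38 (edgeR adjusted p 0.00121). In B6-13D2 against D2 it had 1.38 (edgeR adjusted p 2.81e-11). In D2-13B6 against B6, where Gcdh had -0.71, Syce2 was not called, with -0.06 (edgeR adjusted p 0.579).

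**Figure D2:**
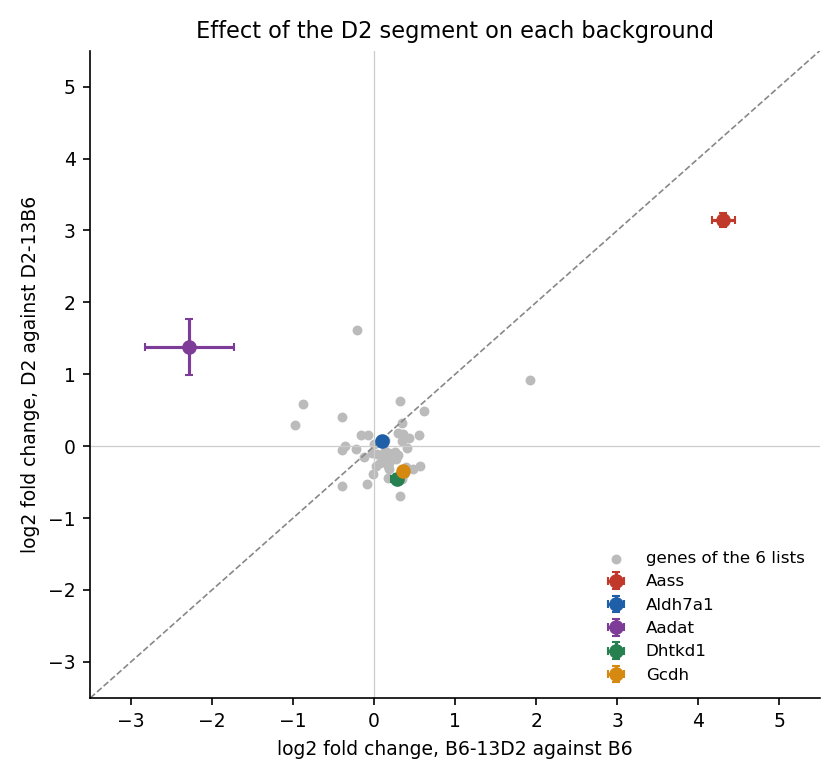
Log2 fold change that goes with the D2 segment on the B6 background (horizontal) and on the D2 background (vertical); coloured points are the 5 enzyme genes with their SE, grey points the genes of 6 related lists, and the dashed line marks equal effects. Aass lies at 4.31 and 3.15, while Dhtkd1 and Gcdh lie at 0.28 and -0.45 and at 0.36 and -0.34.

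Per length of exon, the order of the 5 genes differed between groups. In B6, Gcdh had 17.3 CPM per kb of exon ± 0.881 (SD, n = 3) and Aldh7a1 17.2 ± 0.220, with overlapping libraries, followed by Dhtkd1 with 4.77 ± 0.305. Aadat, with 0.242 ± 0.0741, and Aass, with 0.199 ± 0.0467, closed the order and overlapped. In D2, Aldh7a1 had 14.9 CPM per kb ± 0.663 and Gcdh 8.35 ± 0.477, and Aass came next with 6.80 ± 0.700, above Dhtkd1 with 4.86 ± 0.543. These D2 ranges did not overlap. Aass was thus last of 5 in B6 and the third of 5 in D2.

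In B6-13D2 the order was Gcdh, Aldh7a1, Dhtkd1, Aass and Aadat, and in D2-13B6 it was Aldh7a1, Gcdh, Dhtkd1, Aass and Aadat, with no overlap between neighbours in either. Aass had 3.96 CPM per kb ± 0.177 in B6-13D2 and 0.763 ± 0.0606 in D2-13B6. As a ratio per length to Aldh7a1, the next step, Aass was at 0.460 ± 0.0669 in D2 and 0.215 ± 0.00989 in B6-13D2, but at 0.0540 ± 0.00342 in D2-13B6 and 0.0116 ± 0.00284 in B6 (SD, n = 3). The ranges of this ratio did not overlap between groups, and neither did the Aass levels, by which the gene was chosen.

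**Figure D3:**
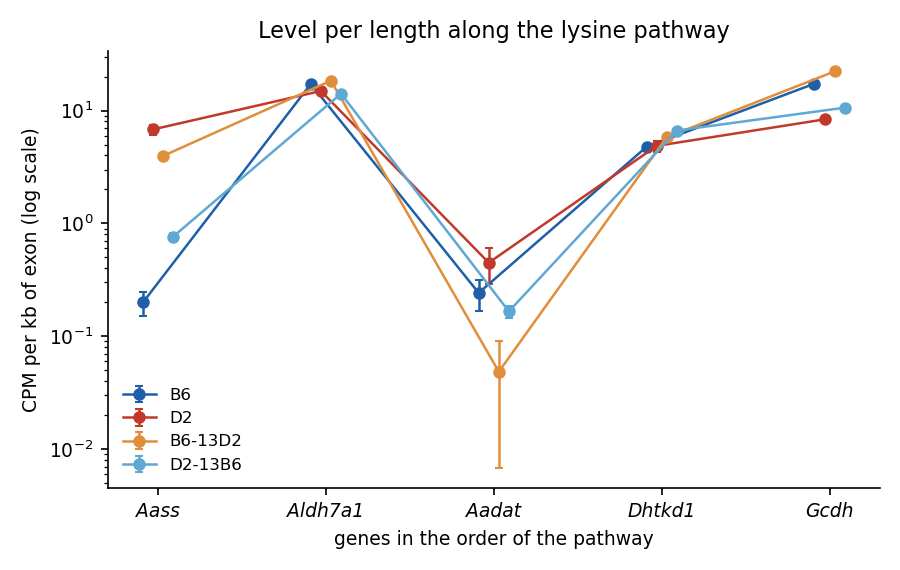
Mean level per kb of exon (CPM per kb, log axis) of the 5 genes in the order of the pathway; lines join the genes of a group and error bars are SD (n = 3). The groups are spread from 0.199 to 6.80 at Aass from 14.1 to 18.4 at Aldh7a1, from 0.0485 to 0.448 at Aadat, from 4.77 to 6.65 at Dhtkd1 and from 8.35 to 22.2 at Gcdh.

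Other genes of lysine metabolism were read from lists. The first holds partners and later steps: Dlst and Dld, which complete the DHTKD1 complex, Etfa, Etfb and Etfdh, which take electrons from GCDH, and Echs1, Hadh and Acat1, which carry the product to acetyl-CoA; Sugct and Slc25a21 were too low to test. Of 8 tested, 3 were called higher and 4 lower in B6-13D2 against B6 (25.4% and 32.9% of all genes), with a median log2 fold change of -0.07 beside -0.04 over all genes. In D2 against D2-13B6, 2 were higher and 4 lower (3 lower in DESeq2; 29.7% and 27.6% of all genes), with a median of -0.08 beside 0.00. None followed the segment in edgeR or DESeq2, beside 7.33% of all genes, so that 0 of 8 is near the background. Echs1, enoyl-CoA hydratase, resembled Gcdh: B6 had 58.7 CPM ± 3.22 and B6-13D2 76.9 ± 1.56, D2 38.0 ± 2.00 and D2-13B6 46.7 ± 2.57. The log2 changes with the D2 segment were 0.39 and -0.29 (edgeR adjusted p 2.65e-06 and 0.00013). Acat1, which makes the final acetyl-CoA, went the other way, with -0.40 and 0.41 (edgeR adjusted p 0.000342 and 0.000235).

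The second list holds other routes of lysine. Of 6 tested genes, 4 were higher and 0 lower in B6-13D2 against B6 in edgeR, and 1 was higher and 3 lower in D2 against D2-13B6. Of all genes, 25.4% were higher and 32.9% lower in the former and 29.7% and 27.6% in the latter. The list's counts in each direction were the same with DESeq2, and its medians were 0.22 and -0.18, beside -0.04 and 0.00 over all genes. Summed stem cell markers were likewise higher in B6-13D2 than in B6 (4230 to 4370 against 3750 to 3910 CPM) and lower in D2 than in D2-13B6 (2740 to 2760 against 3110). Klf4 was the exception among the stem cell markers on the B6 background and Utf1 on the D2 background. Summed fibroblast markers had the inverse pattern (3060 to 3140 against 9270 to 10100, and 13900 to 16700 against 7590 to 7920 CPM), except for Dcn on the D2 background. The part of the stem cell or fibroblast markers was not tested. Pipox, which oxidises pipecolate in the peroxisomal route, changed by 0.57 and -0.27 (edgeR adjusted p 4.66e-07 and 0.00201). Pipox lies on chromosome 11, whose 1386 tested genes had a median of -0.39 in D2 against D2-13B6, beside 0.03 on the other autosomes. Phykpl, another of the 3 lower genes, lies there too, with -0.44 in that comparison (edgeR adjusted p 0.00498). Crym, a ketimine reductase, had -0.55 on the D2 background (edgeR adjusted p 0.0271), a call lost without D2 replicates 2 or 3 or D2-13B6 replicates 1 or 2, and -0.39 on the B6 background (edgeR adjusted p 0.19). Kars, which charges the lysine tRNA, was called on the B6 background with 0.14 (edgeR adjusted p 0.00406) and had -0.06 on the D2 background (edgeR adjusted p 0.227).

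Aldh9a1, an aldehyde dehydrogenase of carnitine synthesis from trimethyllysine, was the member of that list that followed the segment. B6 had 59.4 CPM ± 4.41, B6-13D2 87.0 ± 1.70, D2 36.6 ± 0.735 and D2-13B6 33.0 ± 0.921. The D2 segment went with log2 changes of 0.55 and 0.16 (edgeR adjusted p 1.26e-08 and 0.0154). It did not follow the segment without D2 replicate 2, D2-13B6 replicate 1 or D2-13B6 replicate 2. Unlike Aass, it was lower in D2 than in B6, with -0.70 (edgeR adjusted p 2.14e-09).

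Of 10 tested transporters that carry lysine, 3 followed the segment, beside 7.33% of all genes. Slc7a7, the light chain of a cationic amino acid exchanger, stood at 12.7 CPM ± 0.861 in B6 and 13.2 ± 0.223 in D2-13B6, against 18.7 ± 1.11 in D2 and 19.6 ± 1.76 in B6-13D2. Its levels split by the segment without overlap, and the log2 fold changes were 0.62 and 0.49 (edgeR adjusted p 1.32e-06 and 1.44e-05). Slc3a2, the heavy chain that pairs with Slc7a7 and other light chains, was also higher with the D2 segment, by 0.34 and 0.32 (edgeR adjusted p 1.08e-07 and 2.37e-07). Slc7a3, a cationic amino acid transporter, was lower with it, by -0.09 and -0.53 (edgeR adjusted p 0.0382 and 1.65e-09). The smaller Slc7a3 change was no longer called with RLE size factors or DESeq2 (both -0.03), with no filter (-0.08), with a filter at a mean of 1 CPM or with only the compared groups fitted (both -0.06), nor without B6 replicates 2 or 3, D2 replicate 1, B6-13D2 replicates 2 or 3, or any 1 D2-13B6 library, which leaves 2 transporters that followed the segment.

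In the transporter list as a whole, 3 were higher and 2 lower in B6-13D2 against B6, and 4 were higher and 3 lower in D2 against D2-13B6. Those 5 of 10 and 7 of 10 called stand beside 58.3% and 57.3% of all genes. The medians were -0.01 and 0.31, beside -0.04 and 0.00 over all genes. With RLE size factors or DESeq2 the former median was 0.05. Slc7a2, a cationic transporter, was lower in B6-13D2 by -0.97 and higher in D2 by 0.29 (edgeR adjusted p 1.24e-06 and 0.0137), the latter not called without D2 replicate 1 or D2-13B6 replicate 3. Slc7a9 was called higher in D2 than in D2-13B6, by 1.62 (edgeR adjusted p 0.0324), from 3 to 5 counts a library against 1 to 2. That call was lost with DESeq2, with no filter, and without D2 replicate 1 or any 1 D2-13B6 library.

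Tryptophan breakdown joins the lysine pathway at 2-oxoadipate. Of 8 listed genes only Ido2 and Afmid had enough reads to be tested. Ido2, an enzyme of the first step, followed the segment, at 3.23 CPM ± 0.278 in B6 and 6.28 ± 0.346 in D2-13B6 against 11.9 ± 0.201 in D2 and 12.4 ± 0.256 in B6-13D2. Its changes on the log2 scale were 1.93 and 0.92 (edgeR adjusted p 2.8e-12 and 1.01e-08), and the groups with different segments did not overlap. Afmid, the next step, changed by 0.32 and -0.69 (edgeR adjusted p 0.0487 and 0.000406). Its call on the B6 background was lost in fits with the replicate number as a block and without B6 replicate 2, B6 replicate 3, B6-13D2 replicate 2 or any 1 D2-13B6 library. It lies on chromosome 11.

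Branched-chain amino acid breakdown, a neighbouring mitochondrial pathway, served as a comparison. Of 22 genes, 17 were higher and 0 lower in B6-13D2 against B6 (background 25.4% higher and 32.9% lower in edgeR), and DESeq2 gave 19 and 0. In D2 against D2-13B6, 3 were higher and 12 lower (background 29.7% and 27.6% in edgeR), and DESeq2 gave 2 and 10. The medians were 0.22 and -0.13, beside -0.04 and 0.00 over all genes. Summed stem cell markers were likewise higher in B6-13D2 (4230 to 4370 CPM) than in B6 (3750 to 3910) and lower in D2 (2740 to 2760) than in D2-13B6 (3110), with the exception of Klf4 among 8 in the former and of Utf1 in the latter. Summed fibroblast markers went the other way, with 3060 to 3140 against 9270 to 10100 and 13900 to 16700 against 7590 to 7920 CPM, with Dcn the exception among 6 in the latter. The part of either in the counts was not tested. Aldh6a1, of valine breakdown, changed by 0.48 and -0.32 (edgeR adjusted p 2.87e-06 and 0.000174), and Dbt, a core subunit of the branched-chain complex, by 0.29 and -0.49 (edgeR adjusted p 6.57e-06 and 9.04e-09). Ivd, of leucine breakdown, had the smallest called change on the B6 background, 0.15 (edgeR adjusted p 0.00892), which was lost without B6-13D2 replicate 2.

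Of those 22, Mccc2 and Hibadh followed the segment, a share near the 7.33% of all genes. Mccc2, a carboxylase subunit of leucine breakdown encoded on chromosome 13, changed by 0.36 and 0.17 (edgeR adjusted p 0.000111 and 0.0387). Hibadh changed by 0.30 and 0.18 (edgeR adjusted p 7.58e-06 and 0.00144). Hibadh kept both calls in every alternative fit without a fold threshold. Mccc2 lost its call on the D2 background with DESeq2, with no filter, with only the compared groups fitted, and without D2 replicates 1, 2 or 3 or D2-13B6 replicates 1 or 2.

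Relatives of the DHTKD1 complex, the pyruvate and 2-oxoglutarate dehydrogenases, were the last list. Of 6 tested, 2 were higher and 1 lower in B6-13D2 against B6, and 0 were higher and 5 lower in D2 against D2-13B6. Of all genes, 25.4% were higher and 32.9% lower in the former and 29.7% and 27.6% in the latter. DESeq2 gave 2 and 0, then 0 and 5. In the latter comparison summed stem cell markers were also lower (2740 to 2760 against 3110 CPM) and summed fibroblast markers higher (13900 to 16700 against 7590 to 7920 CPM). Utf1 among the stem cell markers and Dcn among the fibroblast markers were exceptions, and the part of these markers was not tested. Ogdhl, a 2-oxoglutarate dehydrogenase-like gene, had the same signs as Dhtkd1 and Gcdh, 0.37 and -0.38 (edgeR adjusted p 1.97e-07 and 2.48e-07). Ogdh, on chromosome 11, was lower in D2 than in D2-13B6 by -0.39 (edgeR adjusted p 1.29e-08), a difference equal to the median of its chromosome. Pdhb changed by 0.18 and -0.10 (edgeR adjusted p 0.000446 and 0.0344), the latter lost without D2 replicates 1 or 2 or D2-13B6 replicates 1 or 3. Pdhx followed the segment, with -0.13 and -0.15 (edgeR adjusted p 0.0325 and 0.0181), but not with DESeq2, RLE size factors, no filter, a filter at a mean of 1 CPM or only the compared groups fitted, and not without B6 replicate 2, B6 replicate 3, D2 replicate 1, D2 replicate 3, B6-13D2 replicate 1, B6-13D2 replicate 2 or D2-13B6 replicate 2.

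The genes around Aass on chromosome 6 were compared with it. Of 8 coding genes that start within 1 Mb, 4 were tested, and 0 followed the segment in edgeR or DESeq2, beside 7.33% of all genes, a share at which so few genes show little. Ptprz1, a receptor phosphatase gene that starts 257.5 kb from Aass, was highest in D2 with 5.56 CPM ± 0.362 and lowest in B6-13D2 with 1.09 ± 0.649, while B6 had 2.32 ± 0.0505 and D2-13B6 2.35 ± 0.0665. It was lower with the D2 segment on the B6 background, by -1.07 (edgeR adjusted p 0.00212), and higher on the D2 background, by 1.23 (edgeR adjusted p 6.41e-05).

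Cadps2, 706.4 kb away, was lower in B6-13D2 than in B6 by -1.33 (edgeR adjusted p 0.00287), with 0.51 in D2 against D2-13B6 (edgeR adjusted p 0.0971; 0.72 and called without D2-13B6 replicate 1). Fam3c, 776.7 kb away on the side of Ptprz1, changed by -0.17 and 0.39 (edgeR adjusted p 0.000668 and 5.36e-08). Wnt16, at 0.770 to 1.17 CPM by group, had -0.61 and -0.03 (edgeR adjusted p 0.0678 and 0.927). On the B6 background each of the 4 thus had a negative value, Wnt16 without a call, where Aass had 4.31. Of all genes 32.9% were called lower in that comparison, and the median was -0.04, so that these few signs show little. The means of Ptprz1 and Cadps2 were lowest in B6-13D2 and highest in D2, as were the summed fibroblast markers (3060 to 3140 and 13900 to 16700 CPM), whose part was not tested.

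**Figure D4:**
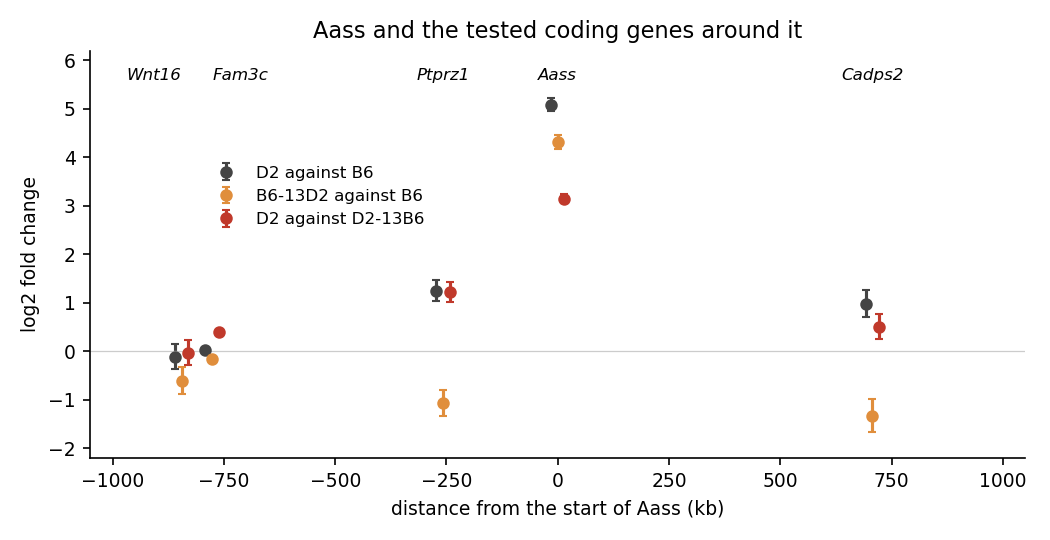
Log2 fold change (with SE) of Aass and the 4 tested coding genes that start within 1 Mb of it, by distance from its start in kb (the points of a gene are set slightly apart); colours are the parental comparison and the segment comparison on each background. Aass stands at 5.09, 4.31 and 3.15, and the neighbours lie between -1.33 and 1.25.

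Genes with the pattern most like Aass were named by Pearson r of log2 CPM over the 12 libraries, which come from 4 groups, so that r is a measure of likeness only. Among 12654 genes whose log2 CPM averaged 1 or more, 26 had r over 0.9 and 66 had r under -0.9. Of the later enzymes, Aldh7a1 had an r of -0.07, Dhtkd1 0.01 and Gcdh -0.26. Aadat, too low to be among the genes compared, had -0.08.

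The 5 highest were H2-Eb1 (chromosome 17, r 0.987), Slc1a4 (chromosome 11, 0.984), Gm10324 (chromosome 13, 0.978), Ido2 (chromosome 8, 0.974) and Sccpdh (chromosome 1, 0.970). H2-Eb1, which encodes a class II antigen-presenting chain, ranged from 2.90 CPM ± 0.402 in B6 through 8.50 ± 0.546 (D2-13B6) and 23.9 ± 0.323 (B6-13D2) to 30.7 ± 1.18 in D2. Slc1a4, a neutral amino acid transporter gene, had 39.5 CPM ± 1.73 (B6), 62.8 ± 2.11 (D2), 60.0 ± 0.0711 (B6-13D2) and 48.1 ± 0.858 (D2-13B6). Sccpdh, named for its similarity to saccharopine dehydrogenase, had 24.0 CPM ± 1.60, 35.6 ± 1.75, 33.0 ± 0.880 and 27.5 ± 0.604 in the same order. Counts of Gm10324 were divided with other loci.

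The 5 lowest were Golm1 (chromosome 13, r -0.981), Gpat3 (chromosome 5, -0.969), Mad2l1bp (chromosome 17, -0.966), Jarid2 (chromosome 13, -0.966) and Acpp (chromosome 9, -0.965). Counts of Gpat3 were divided with other loci. Jarid2, a Polycomb cofactor, had 320 CPM ± 4.94 in B6 and 248 ± 6.10 in D2, with 262 ± 3.04 in B6-13D2 and 281 ± 1.44 in D2-13B6. Golm1, which encodes a Golgi membrane protein, had 107 CPM ± 1.94, 68.0 ± 2.20, 71.9 ± 3.45 and 86.2 ± 1.43 in the same order. Ranked by Spearman's rho, 2 of the 5 highest and 0 of the 5 lowest stayed among the 5, and over group means 3 and 1 did.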

How the data were processed

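RNA of 12 mouse embryonic stem cell libraries was measured by paired-end sequencing of mRNA libraries, per the labels' protocols. The authors deposited expected counts per Ensembl gene and library, which can be fractional, made with EMASE per the file's title. Bowtie 1.0.0, edgeR 3.34.1 and build mm10 are named in the submitters' processing notes; filters, annotation and strand are not given in the sources used here, so overlapping genes are uncertain. Of all values, 88.1% were whole within 1e-06.

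Groups and replicate numbers came from sample titles. Of 43346 IDs, 42462 matched GENCODE M21 (GRCm38), which gave symbols, positions and exon lengths. Counts were rounded and fitted in R 4.3.3 with edgeR 4.0.16: filterByExpr (minimum count 10), TMM, all 4 groups in 1 quasi-likelihood fit (common dispersion 0.001834), Benjamini-Hochberg over 17148 genes, threshold 0.05. SE is the absolute log2 fold change over the square root of F. Alternatives were DESeq2 1.42.0, RLE size factors, no filter, a filter at a mean of 1 CPM, a fold threshold (1 on the log2 scale), a block for replicate number, fits of only the compared groups, and leaving out each library. No 2 libraries of a group matched within sampling noise (chi-square over degrees of freedom 1.96 to 8.62).

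Named were the 5 members, list genes that followed the segment or were highest or lowest among those called in a segment comparison, tested coding genes within 1 Mb of Aass, and the 5 genes most and 5 least like Aass. Phykpl was named for its chromosome. Members and lists were chosen with earlier results of these data known.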

Additional observations from a re-analysis of the deposited data

Results flagged for a closer look

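The effect of the D2 segment differed between backgrounds for 3 of the 4 later enzyme genes by edgeR's interaction test (64.5% of all genes were called). The difference, B6 background minus D2 background on the log2 scale, was -3.66 for Aadat (edgeR adjusted p 0.000128; -4.59 without B6-13D2 replicate 1), 0.74 for Dhtkd1 (edgeR adjusted p 1.91e-06) and 0.70 for Gcdh (edgeR adjusted p 1.61e-07). For Aldh7a1 it was 0.03 (95% interval -0.09 to 0.15, edgeR adjusted p 0.708). Since the contrast equals congenic lines minus parental strains, anything shared by the congenic libraries cannot be told apart from it.

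By the same test it was 0.68 for Echs1, -0.81 for Acat1, 0.83 for Pipox, 0.20 for Kars, 0.40 for Aldh9a1, -1.27 for Slc7a2, -1.83 for Slc7a9, 0.43 for Slc7a3, 1.01 for both Ido2 and Afmid, 0.80 for Aldh6a1, 0.25 for Ivd, 0.78 for Dbt, 0.74 for Ogdhl, 0.28 for Pdhb and 0.38 for Ogdh. It was not called for Crym, Slc7a7, Slc3a2, Mccc2, Hibadh and Pdhx, though Mccc2 and Hibadh were called with RLE size factors. Pipox, Afmid and Ogdh lie on chromosome 11, whose median of -0.39 in D2 against D2-13B6 enters the difference. The difference for Slc7a9 was not called with DESeq2 (adjusted p 0.0807), with no filter (edgeR adjusted p 0.0833), or without D2 replicate 1 or D2-13B6 replicate 3 (edgeR adjusted p 0.0761 and 0.0519). Groups of 3 libraries were not examined for single libraries that stand apart.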

How the results depend on the processing

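No member changed direction between called values under any alternative. Aldh7a1 crossed the threshold in places: its value in D2 against D2-13B6 was 0.11 with a mean CPM of at least 1, and leaving out libraries gave 0.03 to 0.10 there, 0.09 to 0.13 in B6-13D2 against B6 and 0.07 to 0.10 in the average, whose call was lost without D2 replicate 1, B6-13D2 replicate 1 or D2-13B6 replicate 3. A fold threshold of 1 on the log2 scale removed segment calls of Aldh7a1 (0.10, average 0.09), Dhtkd1 (0.28 and -0.45) and Gcdh (0.36 and -0.34). In the difference between backgrounds it removed the calls of Dhtkd1 (0.74) and Gcdh (0.70) and left that of Aadat (-3.66). Between backgrounds or parental strains it removed calls of Aldh7a1 (-0.21, 0.31 and -0.28), Dhtkd1 (0.26 and 0.48) and Gcdh (-0.71). It left 1937 genes called between the parental strains, 2478 in B6-13D2 against B6, 1537 in D2 against D2-13B6, 4821 in B6-13D2 against D2, 1994 in D2-13B6 against B6, 4392 in the difference, 405 in the average and 95 following the segment; in the lists, counted in the segment comparisons only, it left 0 calls except 1 transporter in D2 against D2-13B6 and 1 tryptophan gene in B6-13D2 against B6. Members following the segment were 1 with a mean CPM of at least 1 and 0 to 1 when leaving out libraries. That CPM filter gave 4 branched-chain genes, 0 dehydrogenase relatives following and 2 of the latter called in D2 against D2-13B6. RLE size factors, no filter, DESeq2 and only the groups compared gave 0 dehydrogenase relatives, and the last 3 gave 1 branched-chain gene. Leaving out libraries gave 1 to 2 branched-chain genes, 0 to 1 dehydrogenase relatives and 0 to 1 other lysine routes following; in D2 against D2-13B6, 3 to 5 dehydrogenase relatives and 2 to 4 other lysine routes; in B6-13D2 against B6, 1 to 2 tryptophan genes. With the replicate block 1208 genes followed the segment and 1 tryptophan gene was called in B6-13D2 against B6; no other count here moved by over 1.5 times. Same-numbered libraries had deviations with a mean r of -0.011 (-0.125 to 0.068, 18 pairs), so the numbers showed no pairing. Low counts limit Aadat, with 1 to 30 per library.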
